A study of Mus musculus with 4 samples.

Results

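The genes described here were 9 members of the TGF-beta system, chosen by name and matched by symbol among the 18605 genes that the tables of all 4 libraries listed. They were the ligands Tgfb1, Tgfb2 and Tgfb3, the latency protein gene Ltbp1, the receptors Tgfbr1 and Tgfbr2, and the target or feedback genes Tgfbi, Ccn2 and Smad7. All 9 were listed in every table. Cells were dissociated from tumors that LLC, the Lewis lung carcinoma line of the mouse, had formed under the skin of female C57/BL6N mice aged 6 to 8 weeks. Mock-treated mice gave the control (NT), a single library that pooled 3 tumors. Irradiated mice gave 3 single-tumor libraries (RT1, RT2, RT3), whose tumors had received 3 fractions of 8 Gy (24 Gy in total) between day 7 and day 9, at about 100 mm3, and both groups were sampled at 72 h. Values of the RT libraries are given throughout in the order RT1, RT2, RT3.

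TGF-beta ligands are secreted as latent complexes, bound to latent TGF-beta binding proteins in the matrix, and have to be activated before they bind receptors. The active ligand binds the type II receptor, which recruits and phosphorylates the type I receptor, and SMAD2 and SMAD3 then carry the signal to the nucleus. The inhibitory SMAD7 is induced by the same signal and limits it at the receptor. In tumors the pathway is known for matrix production, for restraint of T cells and for its activation by ionizing radiation.

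Expression was read as unique molecular identifiers (UMIs), each standing for 1 captured transcript. The deposited tables held 69667759 UMIs for NT, 78585759 for RT1, 108699844 for RT2 and 85660188 for RT3, and 55058 of 55805 barcodes were kept as cells. The table of RT2 named genes by symbol alone and held no barcode above 12.0% mitochondrial UMIs, against a highest value of at least 91.5% in the other tables. Between 1.74% and 1.85% of barcodes of the smaller library were shared in each pair of libraries.

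Cells were clustered without the genes described here and without 51 further pathway genes, and clusters were named from marker lists. Each class is X-like by its markers, and the suffix is left out below. LLC cells carried matrix genes that are also fibroblast markers, so that a cluster with tumor or fibroblast markers and at least 0.5 of the highest Rhox5 level among clusters was placed on the LLC side. Rhox5 is a homeobox gene that was high in LLC cells. This rule was set after seeing the clusters. Xist, which is transcribed in cells of the female host, played no part in it and had a mean of 0.939 CPM (UMIs per 1000000 UMIs summed over a class) in LLC tumor cells, against 136 CPM in macrophages and 160 CPM in monocytes. A Rhox5-high cluster of 5074 cells led by Dpt, a fibroblast marker, was kept apart as the Dpt-led cluster. Its Xist level was 0.580 CPM. Neutrophils were the exception among host classes, with 28.9 CPM of Xist and 581 CPM of Rhox5.

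The classes held 31001 tumor cells, 5074 Dpt-led cells, 7410 macrophages, 6559 monocytes, 1658 lymphocytes, 546 dendritic cells, 535 neutrophils, 398 fibroblasts and 296 endothelial cells. A further 1581 cells stayed unnamed, in 2 clusters that also passed that Rhox5 level. Of these, 923 cells carried macrophage markers as well, and 658 were in a cluster of low depth with none of the tumor markers among its 10 leading genes. Macrophages were 706 of the NT cells and 2631, 2574 and 1499 of the RT1, RT2 and RT3 cells, and monocytes were 563 in NT and 1961, 2118 and 1917 in the RT libraries. NT held 17 fibroblasts, 20 neutrophils and 32 endothelial cells, which limits every NT level in these classes. Fibroblasts also differed in other transcripts. The 6 pericyte markers, with Rgs5 the most abundant and none at 0, summed in fibroblasts to 5453 CPM in NT against 1209, 106 and 96.0 in RT, and their part in the fibroblast levels of Tgfb2, Smad7, Tgfbr2 and Ccn2 was not tested.

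By RT mean each ligand had its highest level in a different class. In NT all of them were highest in fibroblasts, on 3 UMIs of Tgfb1, 11 of Tgfb2 and 2 of Tgfb3. For Tgfb1 (ENSMUSG00000002603), the widely expressed isoform of blood cells, macrophages had 11.1 CPM in NT against 12.0, 15.1 and 10.8 in RT. Tumor cells had 1.96 CPM in NT against 1.80, 3.38 and 1.92 in RT. By RT mean the order was monocytes, lymphocytes, neutrophils, macrophages and dendritic cells, between 14.96 and 12.2 CPM, and the RT ranges of neighbors overlapped. Neutrophils held only 3, 3 and 2 UMIs in RT, dendritic cells 2, 9 and 3, and lymphocytes 13, 35 and 4, beside 107, 202 and 49 in macrophages. Tumor cells and the Dpt-led cluster lay below these classes in level, at 2.37 ± 0.879 and 2.74 ± 1.15 CPM (SD, n = 3 RT libraries). NT lay inside the range of the RT libraries in both macrophages and tumor cells. In endothelial cells and fibroblasts NT lay above RT, with 29.4 CPM from 5 UMIs against 2.88, 7.89 and 15.2 in RT endothelial cells, and 32.6 CPM against 3.92, 1.76 and 0 in RT fibroblasts, which held at most 1 UMI a library.

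Tgfb2 (ENSMUSG00000039239) was highest in stromal cells. Fibroblasts had 119 CPM in NT, from 11 UMIs (95% Poisson interval 59.7 to 214), against 23.5, 37.0 and 39.1 in RT, beside the pericyte markers given above. Endothelial cells had 11.8 CPM in NT against 25.9, 52.1 and 15.2 in RT, a range that overlapped that of fibroblasts and lay apart from every other class. No Tgfb2 UMI was counted in monocytes or dendritic cells of any library, and 0 UMIs in the monocytes of RT2 allow a level of up to 0.547 CPM (3 UMIs). Such intervals and limits cover counting error only. Tumor cells were low, between 1.23 and 1.54 CPM in the 4 libraries, but through their number they and the Dpt-led cluster held 84.0% of the Tgfb2 UMIs in NT and 76.2% ± 7.5 (SD, n = 3) in RT.

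Tgfb3 (ENSMUSG00000021253) came from LLC cells, which held 97.8% of its UMIs in NT and 92.4%, 91.5% and 93.2% in RT. Tumor cells had 7.15 CPM in NT against 7.91, 11.03 and 5.96 in RT. The Dpt-led cluster had 9.93 CPM in NT against 12.2, 18.4 and 6.16 in RT. NT again lay within the RT range in both. In macrophages Tgfb3 was between 1.13 and 2.30 CPM.

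**Figure D1:**
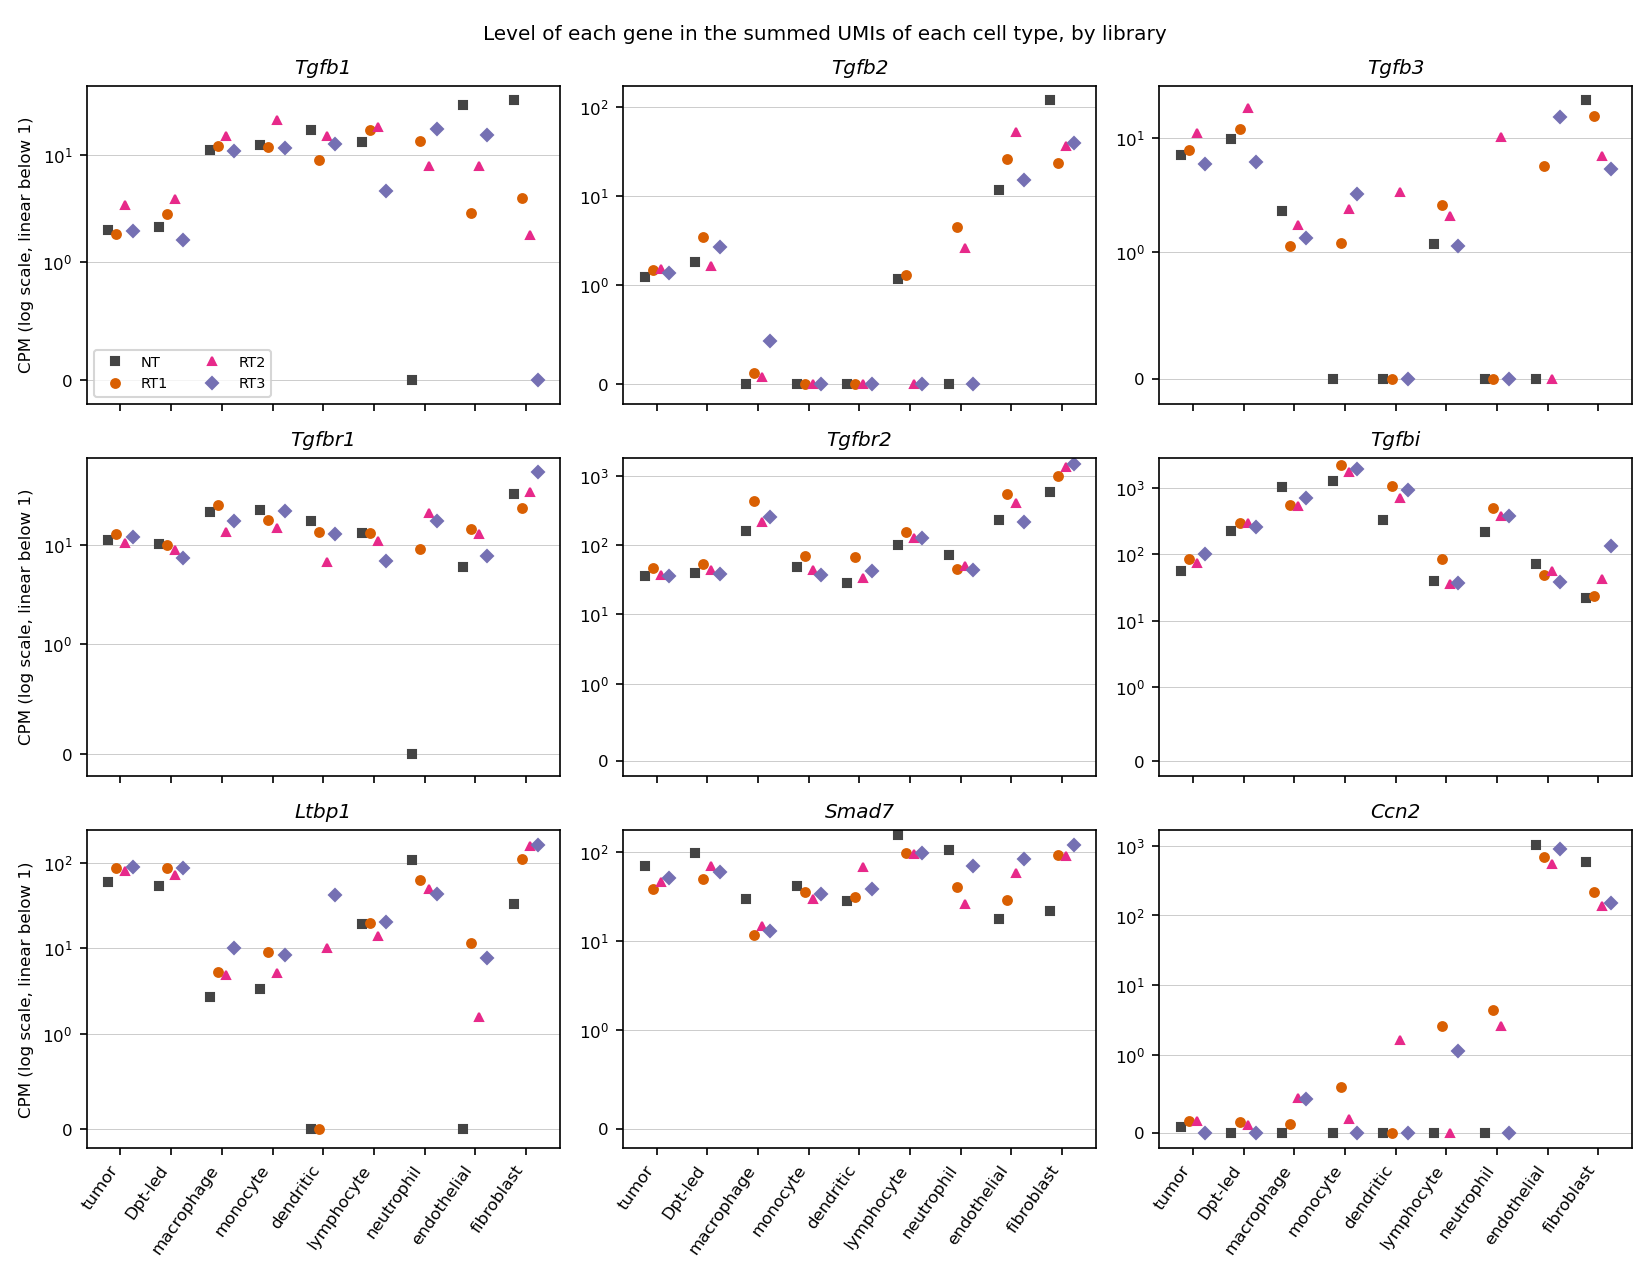
Level of the 9 genes (CPM of summed UMIs, log scale that is linear below 1) in 9 cell classes, with 1 symbol for each library (NT, RT1, RT2, RT3). Ccn2 sits near 0 outside endothelial cells and fibroblasts, Tgfbi is highest in monocytes, and the NT squares of Smad7 lie above the RT symbols in tumor cells, the Dpt-led cluster, macrophages, monocytes and lymphocytes.

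Radiotherapy and control were compared in 8 classes by an edgeR quasi-likelihood test on the UMI sums, with p-values adjusted over all genes of a class. The single NT library is assumed to vary like the RT libraries, and every ratio shares that library. Separate tumors stand behind the RT libraries, and the NT pool averages 3 tumors. The members passed the filter on low counts in 47 of 72 pairs of gene and class. None of the 47 passed an adjusted p of 0.05, against 386 of 68372 (0.565%) over all genes and classes, and DESeq2 called none either. At an unadjusted p under 0.05 edgeR had 11 of the 47, beside 12.3% of all tests. The share of genes that edgeR called was 0.0614% in the Dpt-led cluster, 1.84% in macrophages, 0.289% in monocytes, 0.412% in dendritic cells, 0.297% in lymphocytes, 2.15% in neutrophils and 0.331% in endothelial cells. In tumor cells edgeR called 0 of 13877 genes, while 1832 (13.2%) had an unadjusted p under 0.05 and DESeq2 called 480. Without RT2 edgeR called 419 there and without RT3 229. The differences below between NT and RT within a class are therefore levels that the test did not call.

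Smad7 (ENSMUSG00000025880), the inhibitory SMAD, was lower in every RT library than in NT across most of the tumor. In tumor cells the level was 70.7 CPM in NT against 38.8, 45.9 and 51.4 in RT, a log2 ratio of -0.65 ± 0.20 (SE, edgeR adjusted p = 0.274). The NT level lay above all 3 RT levels, as it did for 29.3% of the genes tested in tumor cells. The 4 markers of cycling cells, led by Top2a with none at 0, summed in tumor cells to 1260 CPM in NT against 1054, 700 and 993 in RT. Fibroblast markers and the stress genes Hspa1b, Jun and Egr1 in tumor cells are given below. The part of these differences in tumor cell Smad7 was not tested. The Dpt-led cluster had 98.9 CPM in NT against 50.2, 69.1 and 60.4 in RT, with a log2 ratio of -0.69 ± 0.22 (edgeR adjusted p = 0.220). NT and RT did not overlap there either, and 30.6% of genes had all RT libraries below NT in that cluster.

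Macrophages, lymphocytes and monocytes had the same order of Smad7, and dendritic cells the reverse, with 28.5 CPM in NT from 5 UMIs against 31.1, 68.6 and 38.2 in RT. With cells assigned by their own markers the dendritic log2 ratio turned from 0.82 to -0.11 (edgeR adjusted p = 0.774 and 0.963). Macrophages had 29.5 CPM in NT against 11.7, 14.98 and 13.01 in RT, a log2 ratio of -1.14 ± 0.28 (edgeR adjusted p = 0.0918), and 32.9% of genes had this order in macrophages. Without RT2 this ratio was -1.27 and passed the test, with an adjusted p of 0.0167. Lymphocytes, in which SMAD7 is known to restrain the TGF-beta signal, had 155 CPM in NT against 96.8, 96.6 and 99.3 in RT, a log2 ratio of -0.57 ± 0.24 (edgeR adjusted p = 0.434), where 37.1% of genes had all RT libraries below NT. In lymphocytes the 12 lymphocyte markers, with Gzmb the most abundant and none at 0, summed to 8707 CPM in NT against 13860, 13591 and 12022 in RT. The 9 macrophage markers, with C1qb the most abundant and none at 0, summed there to 76.1 CPM in NT against 466, 393 and 180 in RT. The 10 tumor markers, led by Rhox5 with 2 at 0, summed there to 616 CPM in NT against 547, 368 and 580 in RT. Rhox5 alone was at 251 CPM in NT lymphocytes against 239, 149 and 258 in RT. Hspa1a, a heat-shock gene, was at 3529 CPM in NT lymphocytes against 1359, 2168 and 1561 in RT (edgeR adjusted p = 0.167), and the related Hspa1b at 4521 CPM in NT against 1930, 2461 and 2048 in RT (edgeR adjusted p = 0.115). Egr1 and Atf3 went the other way in lymphocytes without a call. Egr1 was at 241 CPM in NT against 406, 538 and 299 in RT, and Atf3 at 770 CPM in NT against 1438, 1455 and 972 in RT. The part of these differences in the lymphocyte levels of Smad7, Tgfbr2 and Cdkn1a was not tested. Monocytes lay closer together, at 41.4 CPM in NT and between 29.9 and 35.5 CPM in RT, an order that 24.3% of genes had. Fibroblasts and endothelial cells were the reverse, with 21.7 and 17.7 CPM in NT against RT means of 101.6 ± 16.8 and 57.0 ± 27.6 CPM, but the NT values rest on 2 and 3 UMIs, and the pericyte markers in fibroblasts had the opposite order. By RT mean fibroblasts and lymphocytes (97.6 ± 1.46 CPM) led and overlapped, and macrophages were the lowest class, apart from monocytes above them.

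The order also held inside the clusters. Smad7 was lower in all 3 RT libraries than in NT in each of the 7 tumor clusters, as 4.72% of tested genes were, and in each of the 3 macrophage clusters, as 6.55% were. Counts were small in 2 of the macrophage clusters. Cluster 14 had 26.2 CPM in NT from 9 UMIs against 9.49, 13.7 and 23.2 in RT, from 4, 15 and 11 UMIs. In cluster 9 the NT level rests on 14 UMIs and that of RT3 on 6. Ltbp1 (ENSMUSG00000001870), whose product holds latent TGF-beta in the matrix, was higher in all RT libraries in each of the 7 tumor clusters, as 4.6% of genes were. In tumor cells as a whole Ltbp1 was at 60.2 CPM in NT against 87.2, 79.2 and 88.6 in RT, a log2 ratio of 0.49 ± 0.17 (edgeR adjusted p = 0.315). In the Dpt-led cluster it was at 53.3 CPM in NT against 86.1, 71.9 and 86.5 in RT (edgeR adjusted p = 0.225). NT lay below all RT libraries in both classes, as for 33.6% of genes in tumor cells and 27.8% in the Dpt-led cluster. The 9 fibroblast markers, with Col3a1 the most abundant and none at 0, had the same order in both, with a sum of 1547 CPM in NT tumor cells against 2807, 2137 and 2381 in RT, and of 3573 CPM in the NT Dpt-led cluster against 5633, 4884 and 5188 in RT. Their part in the Ltbp1 levels was not tested. LLC cells held 98.1% of Ltbp1 UMIs in NT and 94.1% ± 1.1 (SD, n = 3) in RT.

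**Figure D2:**
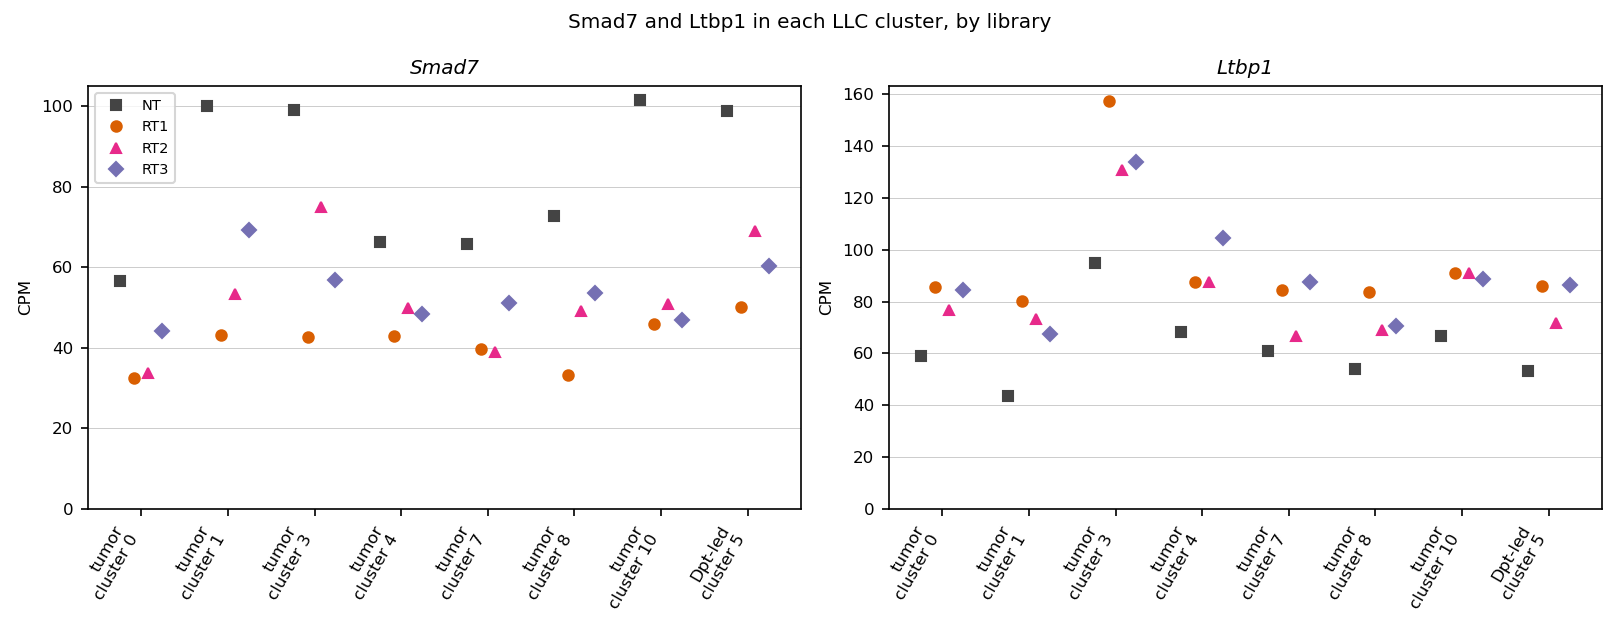
Smad7 and Ltbp1 (CPM, axes from 0) in the 7 tumor clusters and the Dpt-led cluster, with 1 symbol for each library. The NT square is the highest symbol for Smad7 and the lowest for Ltbp1 in all 8 clusters.

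In macrophages and monocytes Ltbp1 was low, and it is given beside the level that carried-over LLC RNA would give. Macrophages of NT had 39.4 CPM of Rhox5, 3.65% of the tumor cell level, and this share of the tumor Ltbp1 level is 2.20 CPM, beside 2.68 CPM measured. In RT the same estimates were 4.05, 3.39 and 5.59 CPM, beside 5.29, 4.87 and 10.1 CPM measured. Monocytes had 3.35 CPM in NT against 8.96, 5.11 and 8.32 in RT, beside estimates of 3.12, 4.70, 3.68 and 5.88 CPM. The part of carried-over RNA in these levels was not tested. Fibroblasts had RT levels of 110, 157 and 162 CPM and were the class with the highest Ltbp1 in RT. In neutrophils Rhox5 was between 40.5% and 62.6% of the tumor level, so their Ltbp1 and Smad7 are not read here.

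The receptors differed in where they lay. Tgfbr1 (ENSMUSG00000007613), the type I receptor, had RT means from 8.66 CPM in the Dpt-led cluster to 36.8 CPM in fibroblasts, and neighbors in that order overlapped, while fibroblasts lay apart from tumor cells. Tumor cells had 11.1 CPM in NT against 12.7, 10.5 and 12.0 in RT, a log2 ratio of 0.06 ± 0.22 (edgeR adjusted p = 0.92). Tgfbr2 (ENSMUSG00000032440), the type II receptor that binds the ligand, spanned 39.7 ± 5.89 CPM in tumor cells to 1260 ± 238 CPM in fibroblasts (RT, SD, n = 3). Endothelial cells (388 ± 168) and macrophages (300 ± 112) came next and overlapped, then lymphocytes at 135 ± 16.5 CPM.

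In macrophages Tgfbr2 was at 161 CPM in NT against 426, 216 and 256 in RT, a log2 ratio of 0.90 ± 0.38 (edgeR adjusted p = 0.290). All RT libraries lay above NT, as for 34.0% of genes, with RT1 far above the others, and the macrophage markers in these cells had the same order of NT and RT (their sums are given with Tgfbi). RT1 had the highest Tgfbr2 in tumor cells as well, at 46.5 CPM beside 36.6 and 36.0 CPM in RT2 and RT3 and 35.2 CPM in NT. Over the 3 macrophage clusters the order held in 2, and 9.57% of genes had it in all 3. In the smallest, cluster 14, RT3 had 101 CPM and NT had 119 CPM. Lymphocytes had 98.7 CPM in NT against 154, 126 and 126 in RT, an order that 23.2% of genes had and that the lymphocyte and macrophage markers given above had in these cells too. Fibroblasts had 587 CPM in NT against 997, 1322 and 1462 in RT, without a test for the 17 fibroblasts of NT, where the pericyte markers had the opposite order.

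Tgfbi (ENSMUSG00000035493), named for its induction by TGF-beta, encodes a secreted matrix protein that binds integrins and was the member with the most UMIs. Monocytes had its highest level, with 1258 CPM in NT against 2200, 1701 and 1916 in RT, a log2 ratio of 0.50 ± 0.26 (edgeR adjusted p = 0.494). All RT libraries lay above NT, as did 43.1% of genes in monocytes. The 7 monocyte markers, with Ly6c2 the most abundant and none at 0, had the same order in these cells, with a sum of 3002 CPM in NT against 4912, 5561 and 7918 in RT. The 8 neutrophil markers, led by Il1r2 with none at 0, summed in monocytes to 88.3 CPM in NT against 573, 450 and 360 in RT, and the 3 platelet markers, led by Ppbp with 1 at 0, to 209 CPM in NT against 695, 279 and 1034 in RT. The part of these markers in the Tgfbi level was not tested. Dendritic cells had 330 CPM in NT, from 58 UMIs (95% Poisson interval 251 to 427), against 1045, 710 and 913 in RT, a log2 ratio of 1.42 ± 0.35 (edgeR adjusted p = 0.101), and 31.1% of genes had this order there. This value passed the test without RT2 (adjusted p = 0.00136) and without RT3 (adjusted p = 0.0204), and with cells assigned by their own markers the log2 ratio was 0.38 (adjusted p = 0.757). In dendritic cells the 7 monocyte markers, with Plac8 the most abundant and 1 at 0, summed to 615 CPM in NT against 1205, 1783 and 1362 in RT. The 9 dendritic cell markers, with Ccr7 the most abundant and none at 0, summed to 4391 CPM in NT against 2551, 2322 and 2899 in RT. The heat-shock gene Hspa1a fell there from 14124 CPM in NT to 5018, 6244 and 4372 in RT (edgeR adjusted p = 0.00970). Macrophage markers in dendritic cells, led by Csf1r with none at 0, summed to 182 CPM in NT against 725, 403 and 378 in RT. The part of these differences in dendritic cell Tgfbi was not tested. In RT the order of levels was monocytes, dendritic cells, macrophages, neutrophils, the Dpt-led cluster and tumor cells, and none of these neighbors overlapped. In NT macrophages stood above dendritic cells.

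Macrophages went the other way. Their Tgfbi was at 1010 CPM in NT against 558, 537 and 698 in RT, a log2 ratio of -0.75 ± 0.22 (edgeR adjusted p = 0.136). NT lay above all RT libraries, as for 32.9% of genes in macrophages. In cluster 6, the largest macrophage cluster, NT had 1064 CPM and RT had 552, 529 and 674. Cluster 9 had the same order, and in cluster 14 RT3 lay above NT (919 and 800 CPM). In tumor cells Tgfbi was at 55.7 CPM in NT against 83.6, 73.1 and 100.2 in RT, a log2 ratio of 0.61 ± 0.23 (edgeR adjusted p = 0.329). NT lay below all RT libraries there, as for 33.6% of genes. The fibroblast markers, given with Ltbp1, had the same order of NT and RT in tumor cells and in the Dpt-led cluster. Their part in the Tgfbi levels of both was not tested.

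The difference between classes passed the test that the differences within them did not. With the library as a block, the log2 ratio of RT to NT for Tgfbi was 1.24 ± 0.19 lower in macrophages than in monocytes (edgeR adjusted p = 0.00860), a test that 124 of 10860 genes (1.14%) passed. It was 1.24 ± 0.14 lower in macrophages than in tumor cells (edgeR adjusted p = 2.08e-04, passed by 3.62% of genes), and both kept their call without each RT library in turn and under the other cell and cluster settings run. In monocytes against tumor cells the difference was -0.08 ± 0.31 (edgeR adjusted p = 0.967, where 2.18% of genes passed). For Tgfbr2 the ratio was 0.81 ± 0.21 higher in macrophages than in tumor cells (edgeR adjusted p = 0.0437), but without RT1 it was 0.54 with an adjusted p of 0.343, with own markers 0.70 (adjusted p = 0.0597) and with a stricter cell filter 0.76 (adjusted p = 0.0572). Against monocytes it was 0.97 ± 0.27 higher (edgeR adjusted p = 0.122). These 3 pairs of classes were compared after the levels had been seen.

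**Figure D3:**
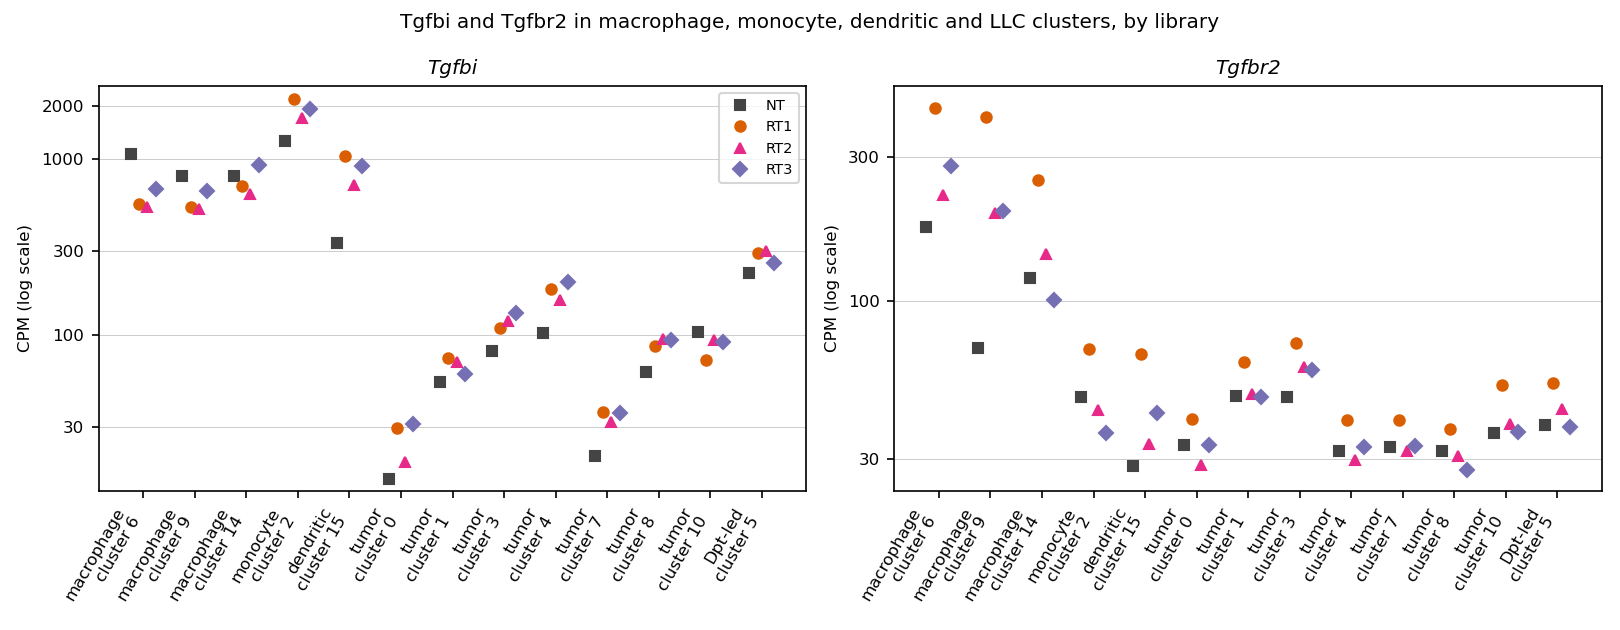
Tgfbi and Tgfbr2 (CPM, log scale) in each macrophage, monocyte, dendritic and LLC cluster, with 1 symbol for each library. For Tgfbi the NT square is the highest symbol in macrophage clusters 6 and 9 and the lowest in monocyte cluster 2 and dendritic cluster 15, and for Tgfbr2 the RT1 circle is the highest symbol in every cluster shown.

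Other transcripts of the same cells also differed between NT and RT. In macrophages Hspa1a had 9798 CPM in NT against 3865, 5223 and 4253 in RT, a log2 ratio of -1.13 ± 0.21 (edgeR adjusted p = 0.0402), and in monocytes 10110 CPM in NT against 2576, 3436 and 2018 in RT (edgeR adjusted p = 0.0305). In tumor cells it was between 23.1 and 38.3 CPM in all libraries, but 2 other stress genes were lower there in every RT library than in NT without a call, Hspa1b with 578 CPM in NT against 253, 384 and 396 in RT (edgeR adjusted p = 0.314) and Jun with 3767 CPM in NT against 2705, 3062 and 2917 in RT (edgeR adjusted p = 0.399). Egr1 went the other way in tumor cells without a call, with 1.12 CPM in NT against 6.11, 8.46 and 2.42 in RT. For Fos and Atf3 NT lay inside the RT range there. In macrophages Egr1 was also higher in every RT library, with 1127 CPM in NT against 1497, 1774 and 1481 in RT, while Hspa1b, Jun and Atf3 were lower in each. The 9 macrophage markers, with C1qb the most abundant and none at 0, summed to 8430 CPM in NT macrophages and to 14425, 15759 and 12714 in RT. Monocyte markers in macrophages, led by F13a1, summed to 730 CPM in NT against 1503, 1042 and 1523 in RT, and 4 markers of cycling cells, led by Cdk1, to 371 CPM in NT against 122, 87.2 and 98.4 in RT. Neutrophil markers in macrophages, led by Mmp9, summed to 112 CPM in NT against 373, 572 and 205 in RT, and platelet markers, led by Ppbp, to 88.4 CPM in NT against 287, 133 and 617 in RT. The part of these differences in the Tgfbi, Smad7, Tgfbr2 and Cdkn1a levels of macrophages, and in the Tgfbi and Smad7 levels of monocytes, was not tested. By the Rhox5 share, carried-over RNA of tumor cells would give up to 6.64 CPM of Tgfbi in macrophages or monocytes, RNA of tumor and Dpt-led cells together up to 8.23 CPM, and RNA of the Dpt-led cluster alone up to 18.2 CPM, each in the monocytes of RT3. In tumor cells C1qb, a macrophage marker, was at 1.06 CPM in NT against 10.7, 15.7 and 5.74 in RT. Macrophage and monocyte RNA together at that ratio would give 0.766 CPM of Tgfbi in NT against 3.63, 3.65 and 2.75 in RT. RNA of monocytes alone would give 2.39 CPM in NT against 29.99, 24.1 and 20.3 in RT. Its part in the tumor cell ratio was not tested.

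Tgfbi also differed among the LLC clusters. Over the 4 libraries it averaged 23.7 ± 7.80 CPM in cluster 0, 31.1 ± 7.35 in cluster 7 and 64.2 ± 8.83 in cluster 1, against 161 ± 43.0 in cluster 4 and 268 ± 34.7 in the Dpt-led cluster (SD, n = 4). The Dpt-led cluster had the highest Tgfbi of the LLC clusters in each library. All RT libraries lay above NT in 6 of the 7 tumor clusters, and below it in cluster 10 (103 CPM in NT against 71.9, 93.3 and 90.4 in RT). The Dpt-led cluster had 224 CPM in NT against 291, 299.7 and 256 in RT, a log2 ratio of 0.36 ± 0.20 (edgeR adjusted p = 0.539).

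Ccn2 (ENSMUSG00000019997), a matricellular gene induced by TGF-beta and by YAP, was almost absent outside the stroma. Endothelial cells and fibroblasts held 98.3% of its UMIs in NT and 96.2% ± 2.0 (SD, n = 3) in RT. Endothelial cells had 1024 CPM in NT against 679, 544 and 892 in RT, a log2 ratio of -0.54 ± 0.34 (edgeR adjusted p = 0.710). NT lay above all RT libraries, as for 30.2% of genes. Fibroblasts had 587 CPM in NT (54 UMIs, 95% Poisson interval 441 to 765) against 216, 136 and 149 in RT, in the same order of NT and RT as the pericyte markers there. In endothelial cells these markers summed to 688 CPM in NT against 762, 404 and 2241 in RT. In tumor cells Ccn2 was at most 0.154 CPM.

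Macrophages and monocytes made up more of the cells in RT than in NT. For Tgfbi, Tgfbr2 and Tgfb1 the shares of UMIs by class are given beside this. The share of Tgfbi UMIs in macrophages, monocytes, dendritic cells and neutrophils together was 40.7% in NT against 62.0%, 63.6% and 46.7% in RT, and the LLC share was 55.2% in NT against 32.1%, 30.4% and 48.4% in RT. Macrophages held 14.2% of the Tgfbr2 UMIs in NT against 48.4%, 37.2% and 23.0% in RT, while LLC cells held 76.6% in NT against 36.6%, 39.3% and 53.0% in RT. Tgfb1 went from 67.0% LLC in NT to 38.9%, 41.3% and 57.3% in RT. Over each whole library Tgfbi was at 136 CPM in NT against 263, 247 and 219.6 in RT.

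**Figure D4:**
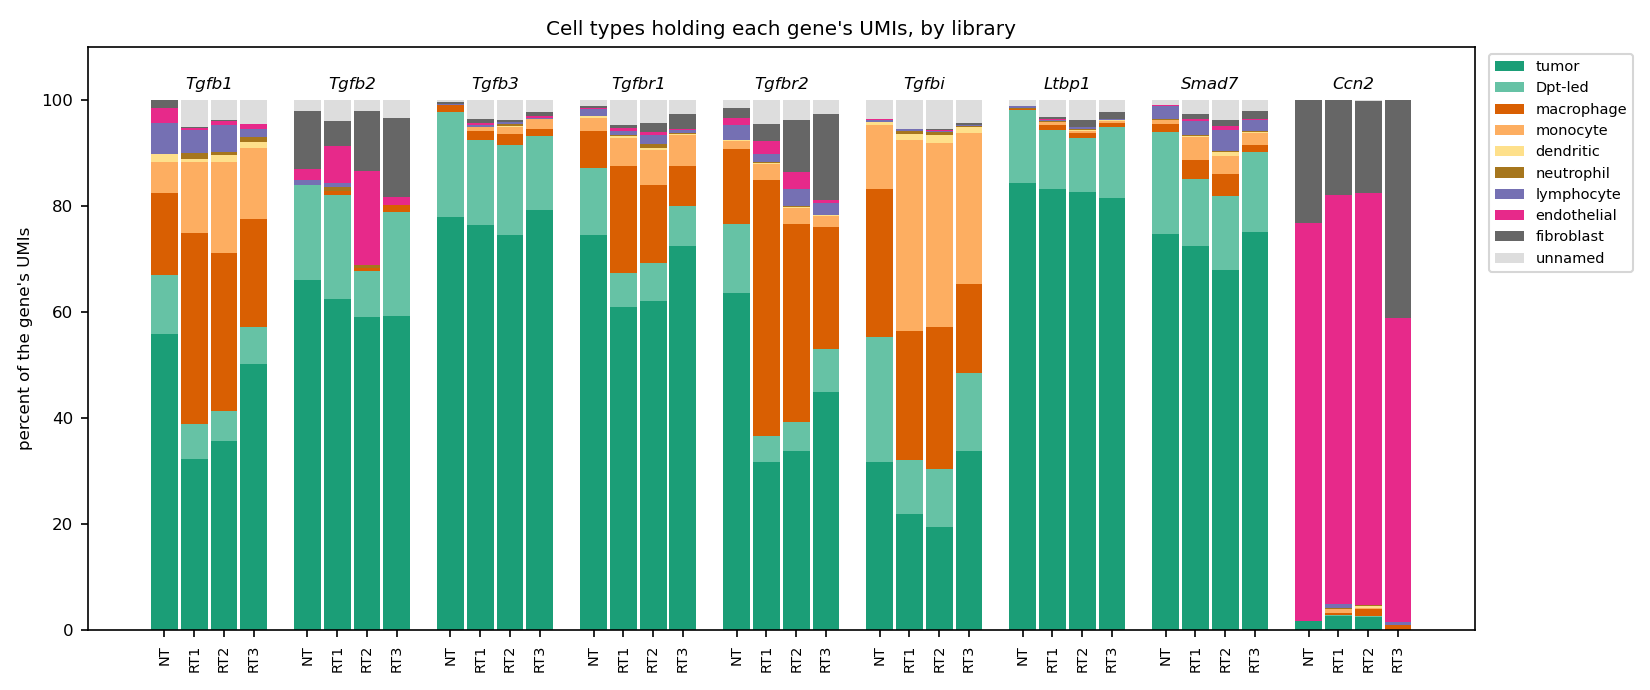
Percent of each gene's UMIs held by each cell class (stacked bars from 0 to 100) in NT, RT1, RT2 and RT3. The macrophage and monocyte parts of Tgfb1, Tgfbr2 and Tgfbi, when added up, are wider in every RT library than in NT, and Ccn2 is endothelial and fibroblast in all 4.

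The NT level of each class was combined with the RT mix of UMIs to set the mix beside the measured ratio. For Tgfbi the whole-library ratio to NT was 1.94, 1.82 and 1.62 in RT, and the mix alone gave 1.81, 1.94 and 1.29. For Tgfbr2 the ratio was 2.36, 1.67 and 1.39, and the mix gave 1.27, 1.34 and 1.12. Smad7 had ratios of 0.502, 0.608 and 0.690, where the mix gave 0.916, 0.912 and 0.969. Ltbp1 had ratios of 1.30, 1.14 and 1.45, on the other side of 1 from the mix, which gave 0.889, 0.862 and 0.962. These are descriptions of the libraries with no test.

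**Figure D5:**
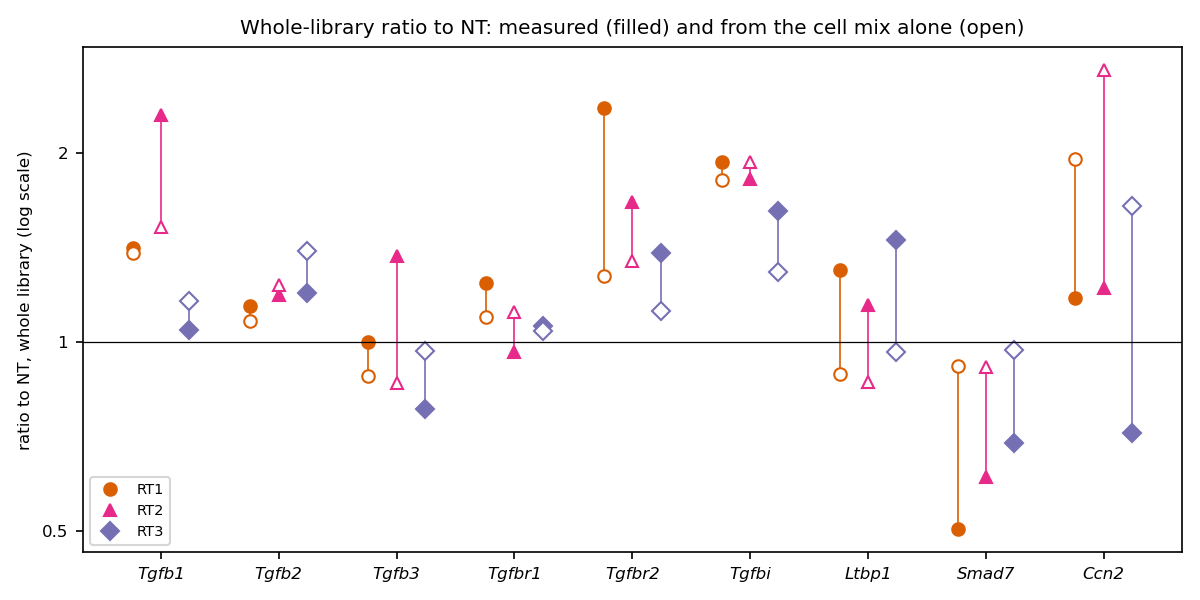
Ratio of each RT library to NT over the whole library (log scale), as measured (filled symbols) and as the cell mix alone gives it with NT levels held in each class (open symbols). Tgfbi lies near the mix in RT1 and RT2, and Smad7 lies below it and Ltbp1 above it in all 3 RT libraries.

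Of 51 further genes of the pathway, 7 gene and class pairs rose and 2 fell among 281 tested, with 53 at an unadjusted p under 0.05, where 0.565% and 12.3% of all tests passed. Macrophages had 1 called gene of 42 and tumor cells 0 of 45, where DESeq2 called 2 and 8 had an unadjusted p under 0.05. The gene called in macrophages was Cdkn1a, the cyclin-dependent kinase inhibitor p21, which TGF-beta and p53 are both known to induce. It rose in macrophages from 302 CPM in NT to 1356, 2023 and 1272 in RT, a log2 ratio of 2.37 ± 0.35 (edgeR adjusted p = 0.0213), beside the marker and Hspa1a differences of these cells given above. Cdkn1a also rose in the Dpt-led cluster, lymphocytes, neutrophils and endothelial cells. Its call was kept in macrophages and lymphocytes under all 10 alternatives run, and was lost in the Dpt-led cluster with the stricter cell filter and without the top 8% of doublet scores, in neutrophils with DESeq2 and in endothelial cells with a summed count of at least 10. In endothelial cells the 10 tumor markers, led by Ccnd1 with 4 at 0, summed to 435 CPM in NT against 713, 543 and 922 in RT. Macrophage markers in endothelial cells, led by Apoe, summed to 5.88 CPM in NT against 66.2, 570 and 15.2 in RT. The part of these in endothelial Cdkn1a, and of the fibroblast markers in Cdkn1a of the Dpt-led cluster, was not tested. Other calls, named after their values were seen, were Thbs1, an activator of latent TGF-beta, which rose in dendritic cells from 62.6 CPM in NT to 409, 231 and 463 in RT (log2 ratio 2.51 ± 0.52, edgeR adjusted p = 0.0382), Ccn1 in neutrophils and Pdgfb, which fell in monocytes. Pdgfb, a growth factor gene, was at 81.6 CPM in NT monocytes against 10.7, 13.7 and 6.87 in RT, a log2 ratio of -3.04 ± 0.36 (edgeR adjusted p = 0.0156). By the values given above, Hspa1a was lower in monocytes of every RT library than of NT. Their monocyte, neutrophil and platelet markers were higher in every RT library. The part of these differences in monocyte Pdgfb was not tested. Thbs1 lost its call in 6 of 9 alternatives, with a log2 ratio of 0.046 (edgeR adjusted p = 0.983) under own markers. In dendritic cells monocyte and macrophage markers were higher, and dendritic cell markers and Hspa1a lower, in every RT library, as given with Tgfbi. The part of these differences in dendritic cell Thbs1 was not tested either. In neutrophils, of which NT held 20, Ccn1 was at 426 CPM in NT from 12 UMIs against 1062, 1788 and 840 in RT (edgeR adjusted p = 0.00278), and Cdkn1a at 106.5 CPM in NT from 3 UMIs against 684, 529 and 528 in RT (edgeR adjusted p = 0.00315). Their 8 neutrophil markers, led by S100a8 with none at 0, summed to 10761 CPM in NT against 35381, 41952 and 37474 in RT, and Rhox5 was 62.6% of the tumor level in NT against 40.7%, 40.5% and 52.4% in RT. Tumor cells had 1776 CPM of Ccn1 in NT against 1198, 2732 and 1687 in RT. The part of these in both neutrophil calls was not tested. Ccn1 lost its call with DESeq2 and without RT2, and Pdgfb without RT1 and at resolution 0.4.

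By list, the 12 latency and activation genes gave 1 rise among 61 tests, and the 20 transcripts that TGF-beta is known to regulate gave 6 rises, 5 of them of Cdkn1a and 1 of Ccn1, and 2 falls among 110. At an unadjusted p under 0.05 edgeR had 11 of these 61 and 30 of these 110, beside 12.3% of all tests, and DESeq2 called 1 and 9. The 8 other receptors and co-receptors had 0 edgeR calls among 36 tests (5 with an unadjusted p under 0.05, 1 by DESeq2), and the 11 SMADs and their regulators had 0 among 74 (7 and 1). Of the 11 SMADs and their regulators, all tested in tumor cells, 7 were lower in every RT library than in NT, as were 29.3% of genes, and 0 were higher, with a median log2 ratio of -0.20 beside 0.01 over all genes, and none was called (edgeR unadjusted p under 0.05 for 0, DESeq2 0). In the Dpt-led cluster 8 of 11 were lower, where 30.6% of genes were, with a median log2 ratio of -0.17 beside -0.0011 over all genes. In macrophages 3 of 10 were higher and 1 lower in every RT library, where 34.0% and 32.9% of genes were, with a median of 0.07 beside 0.03. Lower in every RT library were 5 of 9 in lymphocytes (37.1% of all genes, median log2 ratio -0.29) and 4 of 7 in dendritic cells (30.1%, -0.46). The same held for 4 of 7 in neutrophils (45.7%, -0.04), 3 of 10 in monocytes (24.3%, -0.16) and 3 of 9 in endothelial cells (30.2%, 0.04). In these classes 1 gene was higher, or 2 in endothelial cells. Skil and Fn1 were not called and are given after their values were seen. Skil, a co-repressor of SMADs, had 62.8 CPM in NT against 47.6, 37.4 and 50.4 in RT tumor cells (edgeR adjusted p = 0.388), and in monocytes 294 CPM in NT against 123, 122 and 158 in RT (edgeR adjusted p = 0.0966). The part of the marker and Hspa1a differences of monocytes in their Skil level was not tested. The regulated transcripts had a median log2 ratio of 0.26 over the 18 tested in tumor cells and of -0.25 over the 15 tested in monocytes, where the median of all genes was 0.04. Their median was 0.60 in endothelial cells, 0.59 in neutrophils and 0.22 in dendritic cells, beside 0.05, 0.19 and 0.04 over all genes. It was 0.04 in macrophages, -0.02 in lymphocytes and -0.09 in the Dpt-led cluster, beside 0.03, 0.01 and -0.0011. Of the 18 in tumor cells, 10 were higher and 2 lower in every RT library, where 33.6% and 29.3% of genes were. Of the 15 in monocytes, 6 were higher and 8 lower, where 43.1% and 24.3% of genes were. Fn1, the fibronectin gene, was at 281 CPM in NT tumor cells against 708, 557 and 467 in RT (edgeR adjusted p = 0.208), in the same order of NT and RT as the fibroblast markers in these cells, whose part in it was not tested.

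Over 35 sums of a class within a library, which share 4 libraries, the genes most like each member in log2(CPM + 1) were listed. Ccn2 was nearest to Unc45b, Tshz2 and Inhbb (Pearson r of at least 0.977), Tgfb2 to Rhoj, Cd34 and Slco2a1 (r up to 0.934) and Ltbp1 to Vasn, Csf1 and Sspn (r up to 0.926). Tgfbr2 was nearest to Maged2 (r = 0.935), Tgfbi to Prkcd (r = 0.865), Tgfb1 to Tm6sf1 (r = 0.857), Tgfbr1 to Scarb2 (r = 0.835) and Tgfb3 to Btbd11 (r = 0.826). Smad7 had the least close neighbor of the 9, Traf4 (r = 0.745). These correlations describe how classes differ and carry no test.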

How the data were processed

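Per the study's methods, the authors used the microwell-based SeekOne MM 3′ chemistry, a NovaSeq instrument and SeekOne Tools. The deposited values are raw UMI counts, in a separate table for each library that lists only barcodes taken as cells. The submitters' processing notes also name STAR 2.5.1b, Subread 1.6.4, featureCounts, Cell Ranger and the build GRCm39, with no role. The tables hold no coordinates, and none are given.

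A barcode was retained with 200 genes or more and no more than 20% of UMIs from mitochondrial genes. The 2000 most variable genes gave 30 principal components, which were integrated over libraries with a rewritten Harmony algorithm and clustered with Leiden at resolution 0.8 (scanpy 1.11.5, leidenalg 0.10.2), giving 19 clusters. Doublets were not removed in the main values. Scrublet scores served an alternative without the top 8%. Counts were summed per class and library. The 8 classes with at least 20 cells in each library were tested with edgeR 4.0.16 (filterByExpr, TMM, quasi-likelihood, Benjamini-Hochberg adjustment, 2 residual degrees of freedom), with DESeq2 1.42.0 as an alternative. Differences between classes were tested in 1 edgeR fit of both classes with library as a block. The tests were tried on simulated counts. Levels are CPM of the sums, with exact Poisson intervals for sums and the confidence level at 95%.

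The members, the pathway lists and the tests were chosen with earlier results of these data known. Named genes are the 9 members in every class, pathway genes called in tumor cells or macrophages (at most 6 per list and class), and the 3 genes most like each member among those that reached 20 CPM in 1 sum. Pathway genes named beyond these were chosen after their values were seen. The fibroblasts were not tested because NT held 17 of them. Protein and promoter sequences were not used here. The result of 1 pathway gene is not reported here.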

Additional observations from a re-analysis of the deposited data

Results flagged for a closer look

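The RT against NT difference of Tgfbi differed between macrophages and monocytes, with a log2 difference of -1.24 ± 0.19 (SE, edgeR adjusted p = 0.00860), and between macrophages and tumor cells, with a log2 difference of -1.24 ± 0.14 (edgeR adjusted p = 2.08e-04). In macrophages all 3 RT libraries lay below NT, as for 32.9% of genes. In monocytes and tumor cells all 3 lay above it, as for 43.1% and 33.6% of genes. The pairs of classes in this section were compared after the levels had been seen, and every ratio shares the single NT library. The RT against NT difference of Tgfbr2 differed between macrophages and tumor cells, with a log2 difference of 0.81 ± 0.21 (edgeR adjusted p = 0.0437). The Tgfbr2 difference lost its call without RT1 (0.54, adjusted p = 0.343), with cells assigned by their own markers (0.70, adjusted p = 0.0597) and with the stricter cell filter (0.76, adjusted p = 0.0572).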

How the results depend on the processing

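Of 47 log2 ratios of a member in a class, recomputed 446 times, 426 kept their direction and stayed uncalled, 3 became called and 17 changed sign without a call. The 3 were Smad7 in macrophages and Tgfbi in dendritic cells, as given above. The number of members called was between 0 and 2 without 1 RT library and 0 under every other setting. Without 1 RT library in turn, the ratios that changed sign lay between -0.085 and 0.43 (Tgfb1) and -0.064 and 0.38 (Tgfb3) in tumor cells, -0.14 and 0.65 (Tgfb3) in the Dpt-led cluster, -0.24 and 0.35 (Tgfb1) in monocytes and -0.23 and 0.53 (Tgfb1) in lymphocytes, each lowest without RT2. Tgfbr1 in macrophages lay between -0.46 and 0.022, Ltbp1 in lymphocytes between -0.15 and 0.17, both highest without RT2, and Tgfbr2 in monocytes between -0.37 and 0.086, highest without RT3. Tgfbr2 in monocytes also turned to 0.050 with library totals and no TMM, 0.019 at resolution 0.4 and 0.17 with the stricter cell filter (at least 500 genes, at most 10% mitochondrial UMIs). With cells assigned by their own markers, Tgfb1 turned to -0.046 in monocytes and -0.12 in lymphocytes, and in dendritic cells Tgfbr2 turned to -0.46 and Smad7 to -0.11. Without the top 8% of doublet scores, Tgfb1 (-0.065) and Tgfbi (-0.26) turned in lymphocytes. In monocytes against tumor cells, the Tgfbi difference lay between -0.18 and 0.073 without 1 RT library (highest without RT3) and turned to 0.11 with the Dpt-led cluster counted as tumor cells (a setting chosen after seeing the data), and that of Tgfbr2 turned to 0.0095 with the stricter filter. The Tgfbi difference lay between -1.36 and -0.91 in macrophages against monocytes and between -1.33 and -1.04 against tumor cells, with adjusted p-values of at most 0.0155. The Tgfbr2 difference of macrophages against tumor cells lay between 0.54 and 0.92 without 1 RT library, and was 0.70 with own markers and 0.76 with the stricter filter, and it lost its call without RT1 and under both of these. Against monocytes the Tgfbr2 difference became called without RT2 (1.10). The cause of these changes was not tested.

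The 386 genes called over all classes became 1352 with DESeq2, and between 778 and 2315 without 1 RT library. By class, DESeq2 gave 480 in tumor cells, 333 in the Dpt-led cluster, 367 in macrophages, 104 in monocytes, 38 in lymphocytes, 14 in neutrophils and 4 in endothelial cells, against 0, 7, 208, 29, 25, 82 and 17 with edgeR. Without 1 RT library the counts were 0 to 419 in tumor cells, 240 to 327 in the Dpt-led cluster, 206 to 629 in macrophages, 0 to 507 in monocytes (0 without RT1), 12 to 108 in dendritic cells (18 with all), 82 to 237 in lymphocytes and 70 to 134 in endothelial cells. Library totals gave 51 in the Dpt-led cluster and 50 in neutrophils. A summed count of at least 10 gave 12 in the Dpt-led cluster, 1 in dendritic cells, 34 in neutrophils and 0 in endothelial cells. Own markers gave 40 in dendritic cells and 84 in lymphocytes, resolution 0.4 gave 17 in monocytes, the stricter filter gave 0 in the Dpt-led cluster and 10 in dendritic cells, and the doublet setting gave 0, 41 and 55 in the Dpt-led cluster, lymphocytes and endothelial cells. Pathway calls (9) were 5 with the stricter filter and with the doublet setting, and between 7 and 27 without 1 RT library. Calls in neutrophils, of which NT held 20, were run under 7 alternatives, against 10 for the calls in macrophages. The counts of 5 therefore mix calls that were lost with calls that were not run. The LLC share in RT moved to 93.9% and 95.6% for Tgfb3 and to 95.7% and 97.1% for Ltbp1 with own markers and the doublet setting, and to 4.59% for Ccn2 with own markers.

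No paired analysis was possible because NT is 1 pooled library and shares no replicate number with 2 or more RT libraries. With 1 NT library, a difference between NT and RT and the state of that pool cannot be told apart. Own markers form no Dpt-led class, and at resolution 0.4 NT held 16 dendritic cells, under the minimum of 20, so these were not run.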
